A study of Caenorhabditis elegans with 2 samples.

Results

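The genes for the subunits of the worm DREAM complex and a further gene of its E2F family, 9 of 19973 protein-coding genes on the nuclear chromosomes in all, were examined for binding of ZTF-11 in the first larval stage (L1). The members are lin-9, lin-37, lin-52, lin-53 and lin-54 (the MuvB core), lin-35 (the retinoblastoma homolog), efl-1 and efl-2 (E2F family) and dpl-1 (the DP partner of E2F). They were listed by function, with earlier results of these data known. A region was assigned to a gene where its summit lay within 2000 bp of the annotated 5' end or inside the gene, so that 1 region could count for several genes. Chromatin immunoprecipitation with sequencing (ChIP-seq) used an anti-GFP antibody on whole hermaphrodites of strain OP511, which carries unc-119(tm4063) III and the transgene wgIs511, and so the zinc-finger protein ZTF-11 with a GFP-FLAG tag at its C terminus. Worms were collected 6 hours after release from starved L1 arrest, in 1 group of 2 biological replicates. No other genotype or untagged strain was analysed here. Whole larvae were used, so a signal averages over all cells, and neither the expression pattern nor the copy number of the transgene is stated in the labels.

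DREAM is a repressor assembly that is conserved from worms to mammals. The MuvB core docks a pocket protein of the retinoblastoma family and an E2F-DP pair on promoters, where it keeps cell cycle genes silent in cells that do not divide and, in worm somatic cells, germline genes silent. In Caenorhabditis elegans its subunits were found as class B synthetic multivulva (synMuv) genes. The LIN-54 protein contacts DNA at an element called CHR, and E2F-DP contacts GC-rich sites.

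The sequences at the summits of 3 of the bound members, and of 1 member whose strongest region fell below the authors' threshold, show what letters ZTF-11 signal was centred on. All are on WBcel235 (ce11), taken from the RefSeq copy of that assembly, and are written 5′ to 3′ on the strand of the named gene. Each covers 50 bp either side of the summit, except that the lin-54 window was shortened to 99 bases to leave out the annotated exon of rpl-12. Capitals mark the CHR letters, which are TTTGAA or in another form TTCGAA. They also mark the E2F letters, which are TTCCCGC in the first form, TTCGCGC in the next, then TTGCCGC and lastly TTGGCGC. Further capitals mark AAGTT (the core known for MYT1-family proteins), CTGCGTCT, and a run shared between windows, GCGCTCCAC, each on either strand. The windows are lin-54 at chrIV:13240652-13240750 (+), lin-9 at chrIII:8904241-8904341 (−), efl-1 at chrV:16965812-16965912 (−) and lin-37 at chrIII:7074096-7074196 (−).
lin-54: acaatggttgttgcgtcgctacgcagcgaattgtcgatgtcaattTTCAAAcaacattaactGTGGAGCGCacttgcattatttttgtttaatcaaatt
lin-9: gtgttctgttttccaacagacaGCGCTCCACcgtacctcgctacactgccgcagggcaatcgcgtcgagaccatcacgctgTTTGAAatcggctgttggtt
efl-1: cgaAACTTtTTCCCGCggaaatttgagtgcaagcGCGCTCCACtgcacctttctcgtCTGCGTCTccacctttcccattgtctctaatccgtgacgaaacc
lin-37: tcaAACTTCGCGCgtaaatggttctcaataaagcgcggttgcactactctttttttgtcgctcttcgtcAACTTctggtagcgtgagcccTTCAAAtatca

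ZTF-11 peaks were found at 5 of the 9 genes, and at the other 4 the signal fell short of the authors' threshold. The authors' list kept by the irreproducible discovery rate (IDR, a measure of how well ranks agree between replicates) held 1875 peaks. These equalled the first 1875 of the 30000 regions of the pooled list. A place in the list therefore does not by itself show that a given peak ranked alike in both replicates. Of the 9 members, 5 (55.6%, exact Clopper-Pearson 95% interval 21.2 to 86.3, which covers counting error only) had an IDR summit under the rule, against 11.9% of all coding genes. These were lin-54, lin-35, lin-53, lin-9 and efl-1, or 3 of the 5 MuvB genes, the pocket protein gene and, of the 2 E2F family genes, the one whose product is known in the complex. The same 5 had a summit within 1000 bp of the 5' end, a narrower rule met by 8.09% of coding genes. Where each summit was given to its nearest coding gene alone, 3 members remained (lin-35, lin-9 and efl-1). The share of all coding genes under that rule is not given here, so this count has no base rate beside it. Because the members were listed with earlier results known, their share beside that of all coding genes is a description. Of the 9 members, 4 had a summit in the first 187 ranks, against 1.57% of all coding genes (314 of 19973). That limit was chosen with the members' ranks known. No comparison between conditions exists in this series, so shares of members are set beside shares of all coding genes with no test.

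Among the MuvB genes, lin-54, which encodes the DNA-binding subunit, had the highest signal of all members. The peak ranked 63 in the pooled list (signal 449, on the caller's own scale), 70 in replicate 1 (281) and 61 in replicate 2 (168). The median signal of the first 1875 regions was 107 in the pooled list, 67.4 in replicate 1 and 40.5 in replicate 2. On this relative scale the lin-54 peak was 4.21 times the median in the pooled list and 4.16 times in each replicate, so both replicates placed it alike. Its summit lay 344 bp upstream of lin-54 in the pooled list, and 361 and 363 bp upstream in replicates 1 and 2. The summit was closer to another gene. It lay 49 bp upstream of rpl-12, a ribosomal protein gene that runs away from lin-54 on the other strand, and ZTF-11 signal here cannot be given to either gene alone. The 5' ends of tag-115 (1286 bp) and the snoRNA gene JC8.15 (1623 bp) were also in range.

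The gene lin-53, for a histone-binding protein of the RbAp48 type that is shared with other chromatin complexes, carried the peak at pooled rank 167 on chromosome I from 9619921 to 9620079. Signals were 311 in the pooled list, 179 in replicate 1 (rank 216) and 135 in replicate 2 (rank 112), or 2.91, 2.66 and 3.33 times the median of the first 1875 regions. Replicate 2 thus placed it higher than replicate 1. The summits of the replicates, 236 and 238 bp upstream, differed by less than the 100 bp used to match regions. The summit lay almost midway between lin-53 (236 bp) and nra-2 (231 bp) on the opposite strand. It was also counted, at 1889 bp, for rba-1, the neighbouring paralog of lin-53, whose 5' end lies just past the end of lin-53.

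The gene lin-9, which encodes a scaffold subunit, had its peak at pooled rank 183, on chromosome III from 8904222 to 8904386. The signal was 303 in the pooled list, 193 in replicate 1 (rank 185) and 104 in replicate 2 (rank 197). These were 2.84, 2.87 and 2.58 times the median. Ranks and summits hardly moved between lists, with summits 160, 161 and 160 bp upstream. This was the closest summit to a member's own 5' end among the 5 bound members, and lin-9 was the nearest coding gene. The next coding 5' end, that of unc-32 (a subunit of the vacuolar proton pump), was 1324 bp away, and the non-coding RNA gene ZK637.19 lay 1297 bp away.

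The pocket protein gene lin-35 had its peak on chromosome I from 5807453 to 5807628, at pooled rank 94 with a signal of 381. In signal relative to the median, it was the member whose replicates differed most among the 4 in the first 187 ranks. Replicate 1 gave rank 73 and a signal of 275, or 4.07 times the median, and replicate 2 gave rank 171 and 112, or 2.76 times. Both replicates nevertheless placed it well inside their first 1875 regions. Summits were 198 bp upstream in replicate 1 and 170 bp upstream in replicate 2. The intergenic gap is shared with vps-51, whose product belongs to a vesicle tethering complex and whose 5' end was 222 bp from the summit, against 196 bp for lin-35.

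Of the E2F and DP genes, efl-1, which encodes the E2F of the complex, was the bound member. The peak, on chromosome V from 16965680 to 16966043, ranked 595 in the pooled list with a signal of 149, 583 in replicate 1 (95.3) and 825 in replicate 2 (43.9). At 1.39, 1.41 and 1.08 times the median it was lower in every list than the peaks of the other 4 bound members. The summits were 187, 187 and 191 bp upstream. The gap is shared with fbxa-90, 952 bp away, an F-box gene.

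**Figure D1:**
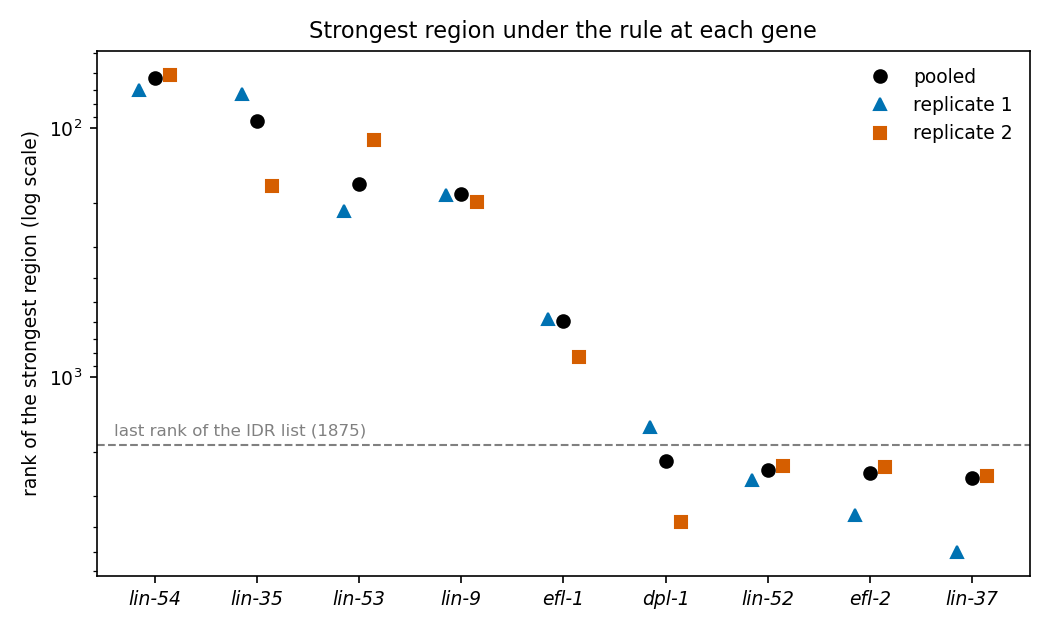
Rank of the strongest region under the rule for each of the 9 genes (log axis, rank 1 at the top), in the pooled list (circles), replicate 1 (triangles) and replicate 2 (squares), with the last rank of the IDR list dashed. The pooled ranks of 5 genes lie between 63 and 595, and those of the other 4 lie between 2156 and 2535, just below the dashed line.

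The remaining members, dpl-1, lin-52, efl-2 and lin-37, had no IDR summit, but each had a pooled region not far below the end of that list. The lowest IDR signal was 66.2. The strongest pooled regions of these genes had signals of 60.0 for dpl-1 (rank 2156), 56.4 for lin-52 (rank 2353), 55.4 for efl-2 (rank 2414) and 54.0 for lin-37 (rank 2535). Pooled regions under the rule existed for all 9 members and for 74.8% of coding genes, so having one is common. A strongest region at rank 2535 or better was found at 3.20% of the 17598 coding genes without an IDR summit, and at 14.7% of all coding genes. That limit was set by the lowest of the members, so their own count under it is fixed and is not a result. The median best rank was 595 over the 9 members and 9716 over the coding genes with a pooled region.

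These weaker regions were not equal in how well the replicates placed them. For lin-37, a small MuvB subunit gene, the summit 1594 bp upstream was matched in replicate 1 (rank 5007, signal 27.0) and replicate 2 (rank 2479, signal 23.4). For lin-52, another small subunit gene, the summit 1350 bp upstream was matched at rank 2748 (34.4) and rank 2262 (24.4). The efl-2 summit, 968 bp upstream, was matched at rank 3567 (30.7) and rank 2292 (24.2). All of these were thus present in both replicates, and none was within the first 1875 of either.

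By the 100 bp match, the dpl-1 region was the exception. The pooled summit was 143 bp upstream of the 5' end. It was matched in replicate 2 (rank 3787, 237 bp upstream), 94 bp away, but not within 100 bp in replicate 1. The strongest region of replicate 1, from 9169708 to 9170071, overlapped the pooled region, from 9169585 to 9169948. Its summit was 20 bp upstream, with a signal of 47.7 at rank 1581, inside the first 1875 regions of that replicate. With the first 1875 regions of replicate 1 alone, dpl-1 therefore counted as bound too. Its 5' end lies inside T23G7.2 on the opposite strand, and the pooled summit was in an exon of a non-coding transcript of that gene. Among all 660 pooled regions from rank 1876 to 2535, 81.2% were matched in both replicates.

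Some of these regions sit nearer to another gene than to the member. The lin-37 region lay 295 bp upstream of ZK418.5, which precedes lin-37 on the same strand with a gap of 61 bp. The strongest lin-52 region lay 668 bp upstream of ZK632.9, which precedes lin-52 on the same strand with a gap of 127 bp. Another lin-52 region, 621 bp upstream with a signal of 44.3 at pooled rank 3775, was matched in replicate 1 only. There, 597 bp upstream at rank 2573 (signal 35.4), it was the strongest lin-52 region. A weaker region 128 bp upstream of lin-52 had a signal of 28.9 at rank 13047 and was also matched in replicate 1 only. By contrast no other gene had its 5' end within 2000 bp of the efl-2 summit.

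**Figure D2:**
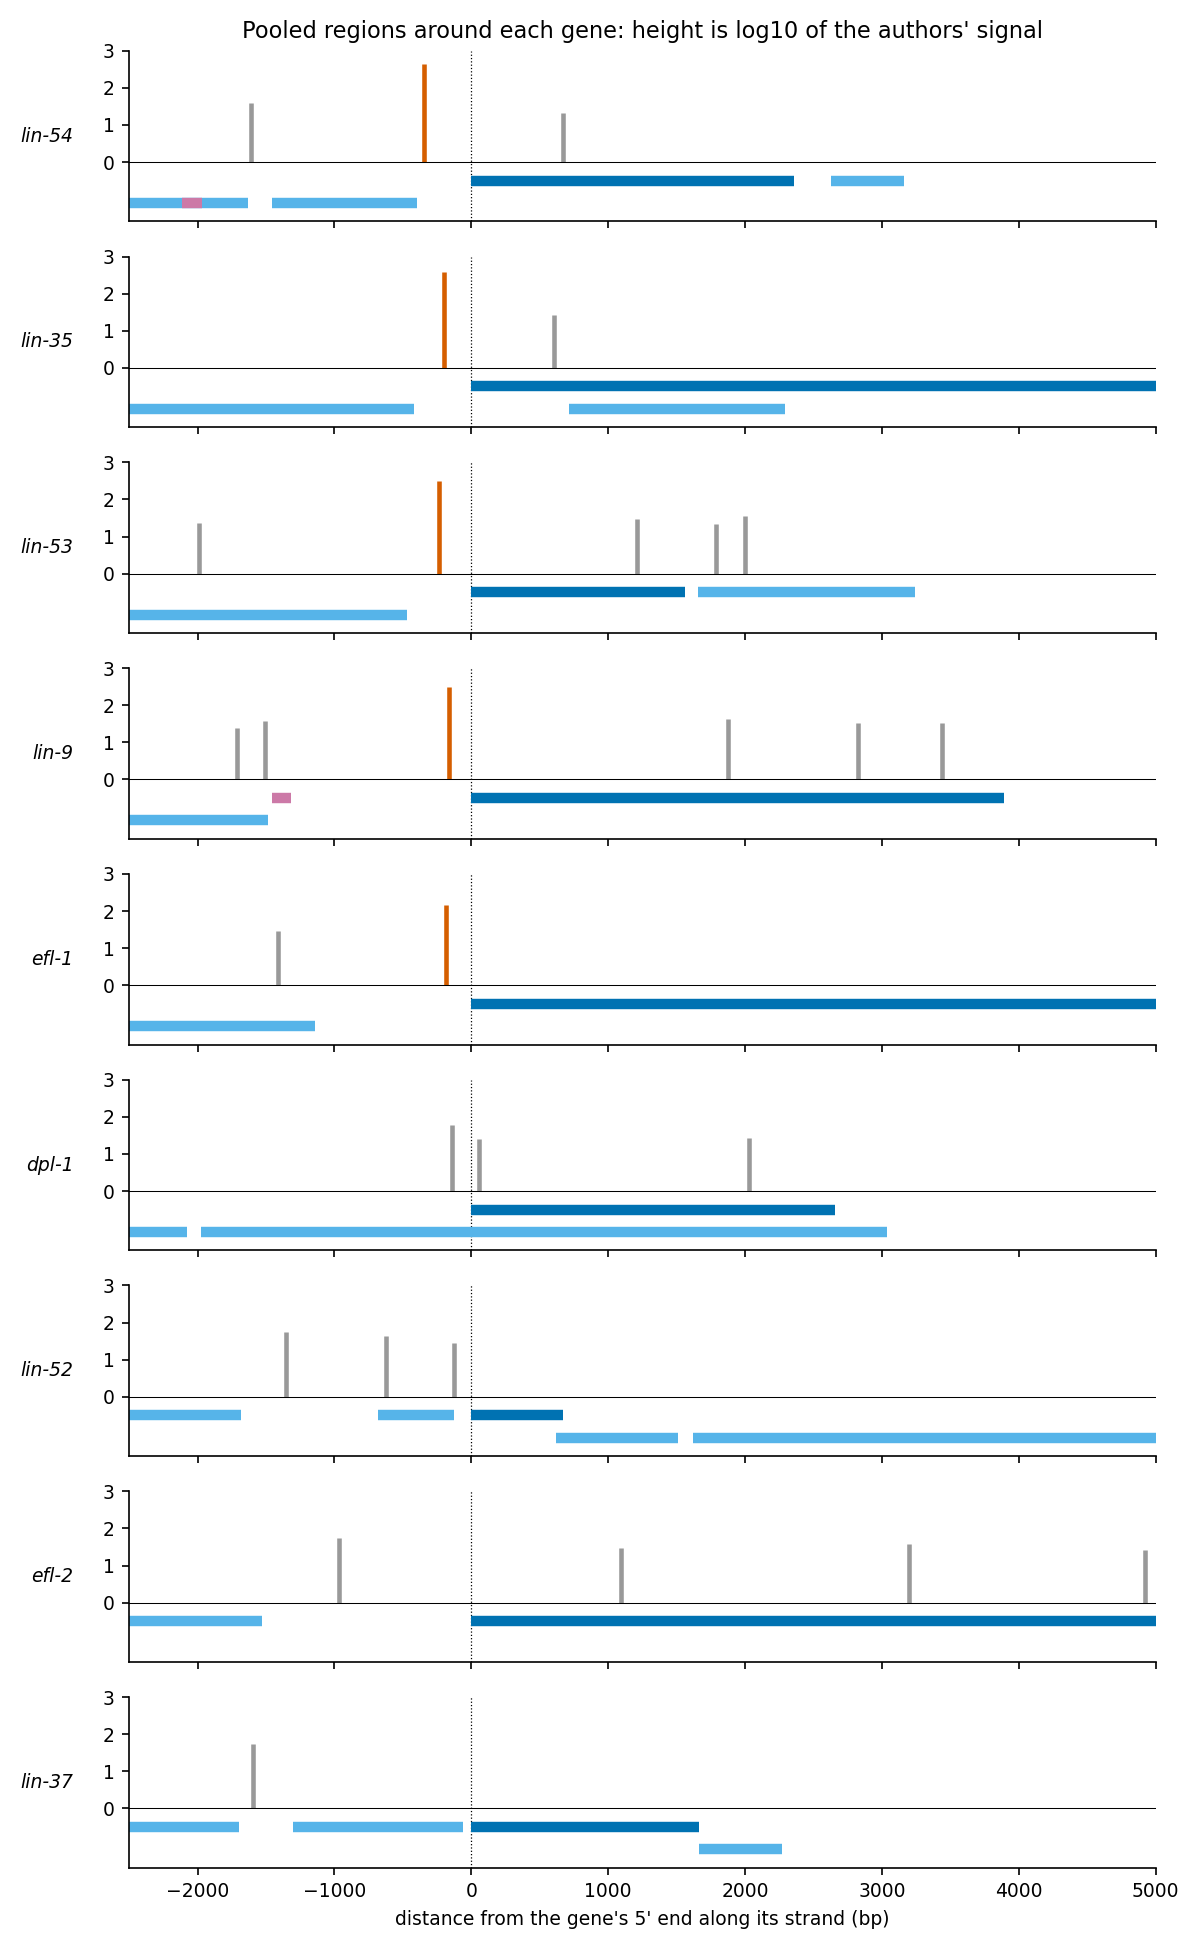
Pooled regions around each gene, at their summit's distance in bp from the gene's 5' end (dotted line; upstream is negative), with the height showing log10 of the authors' signal; orange bars are in the IDR list and grey bars are below it. Blocks show the named gene (dark blue), other coding genes (light blue) and non-coding genes (pink), in the upper row where they run the same way as the named gene and in the lower row where they run the opposite way. The 5 orange bars all stand upstream, 160 to 344 bp from the 5' end, in gaps between genes that run apart.

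The bound members shared their position and the arrangement of their neighbours. All 5 IDR summits were intergenic, as were 64.1% of all IDR summits, and each lay 160 to 344 bp upstream. Among the 2164 coding genes whose strongest IDR summit was within 2000 bp of the 5' end, 83.8% had it upstream, with a median position 257 bp upstream and quartiles at 769 and 96 bp upstream. So the members' summits fell between those quartiles. In each case the nearest coding gene on the 5' side ran in the opposite direction, head to head, with a gap of up to 2000 bp. None of the 4 members without an IDR summit had that arrangement. Of these, lin-37, lin-52 and efl-2 follow a gene on the same strand, and dpl-1 starts inside T23G7.2.

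The share of coding genes with an IDR summit was given for each arrangement, with no test between them. For head-to-head genes it was 20.4% (1017 of 4987, exact 95% interval 19.3 to 21.5) with a gap of up to 2000 bp and 9.70% (8.73 to 10.7) with a larger gap. It was 11.9% (10.5 to 13.5) for genes on the same strand as a neighbour up to 200 bp away and 7.90% (7.20 to 8.65) at 201 to 2000 bp. It was 7.52% (6.58 to 8.55) on the same strand with a larger gap, and 11.4% (9.74 to 13.1) for genes that start inside another coding gene. A summit in a gap between head-to-head genes counts for both of them, which by itself raises their share. The classes were compared after the members' neighbours had been seen. All 5 members in the first of these classes had a summit, against 20.4% of that class. With summits within 1000 bp only, the share of that class was 17.4%, and those of the other classes ran from 3.57% to 5.90%. Coding 5' ends numbered 2 or more within 1000 bp of 4 of the 5 member summits and of 24.6% of all IDR summits. The 24.6% is over all IDR summits, whether or not any coding 5' end was in range. Each member summit, by contrast, had its member's own 5' end in range. The share among summits with a coding 5' end in range was not counted, so 24.6% is not a like base rate for the members.

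**Figure D3:**
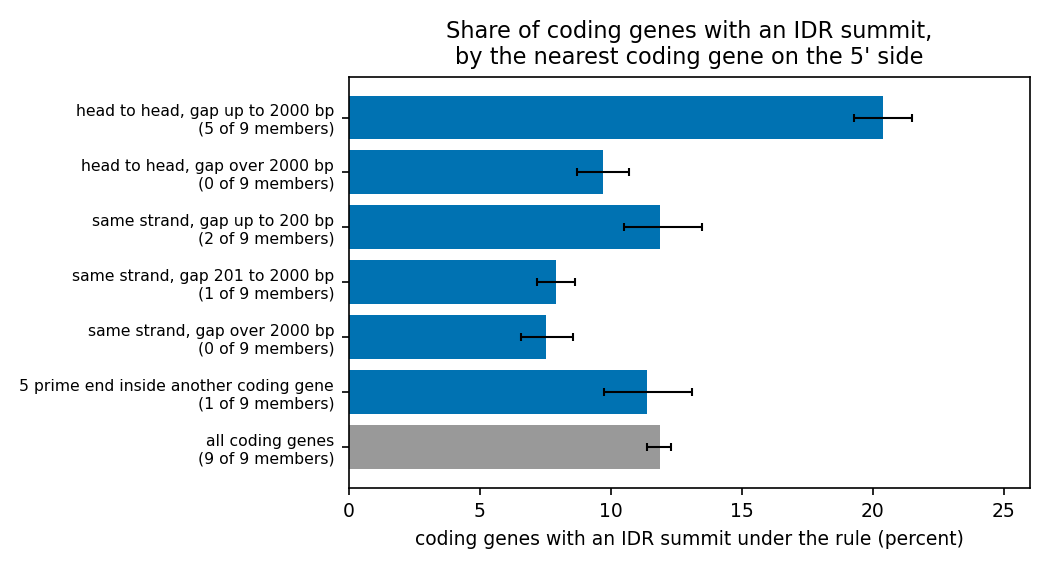
Percent of coding genes with an IDR summit under the rule, by the direction and distance of the nearest coding gene on the 5' side; bars are shares and whiskers exact 95% intervals, and the number of the 9 members in each class is in brackets. The class of head-to-head genes with a gap of up to 2000 bp, which holds 5 members, stands at 20.4%, and all coding genes at 11.9%.

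The widths of the member peaks differed between lists. In the pooled list 99.1% of regions had the same width of 364 bp, and 14.7% of IDR peaks were narrower. Of the 5 member peaks 4 were narrower, at 216 bp for lin-54, 176 bp for lin-35, 165 bp for lin-9 and 159 bp for lin-53, and efl-1 had the common width. The 4 narrower peaks were also those in the first 187 ranks, and the share of narrow peaks at like rank was not counted. In replicate 1 the same 4 were narrower than its common width of 364 bp, at 117 to 191 bp. In replicate 2, where the common width was 344 bp, lin-54 (144 bp) and lin-53 (99 bp) were narrower, and lin-35, lin-9 and efl-1 had the common width. All 5 were matched within 100 bp in both replicates, as were 95.1% of all IDR peaks. Below the IDR list the members had 25 pooled regions under the rule, of which 8 (32.0%) were matched in both replicates, against 22.7% of all 28125 such regions. The highest of these at a bound member was inside lin-9, 1876 bp downstream of its 5' end, with a signal of 43.1 at rank 4031, and it was matched at rank 13975 in replicate 1 and 9605 in replicate 2.

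In pooled rank, the peaks directly above and below each bound member were taken as those most like it, a likeness of rank only, in the 1 pooled list. Those nearest to lin-54 in rank were at C53B4.3 (rank 62) and Y41G9A.17 (rank 64), and those nearest to lin-35 at pbrm-1 (rank 93) and wip-1 (rank 95). For lin-53 they were at F54F12.1 (rank 166) and cnk-1 (rank 168), for lin-9 at zipt-9 (rank 182) and ftt-2 (rank 184), and for efl-1 at gldi-8 (rank 594) and szy-20 (rank 596). Several of these summits were far from the gene named, for example 7184 bp for F54F12.1.

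The letters at the summits, some of which are shown above, differed between members. CHR letters were within 50 bp of the summit at lin-54, lin-53 and lin-9, or 3 of 5 bound members, against 21.8% of all IDR windows of that length and 29.2% of the 11250 pooled regions ranked after 18750. They were also in the windows of lin-37 and lin-52. E2F letters were in the efl-1 window, against 12.1% of IDR windows and 3.75% of the low-ranked ones, and in the lin-37 window, where they overlap AACTT, the reverse complement of AAGTT, by some bases. AAGTT was found at lin-35 and efl-1, against 13.2% of IDR windows and 31.7% of low-ranked windows. It was also in the windows of lin-37 and efl-2, which had no IDR summit. CTGCGTCT was in the efl-1 window (8.75% of IDR windows, 0.667% of low-ranked ones). GAGAGA (23.8% of IDR windows, 5.72% of low-ranked ones) was in the dpl-1 window and in none of the 5 bound members' windows, and GGCGGG (7.73% and 2.34%) was in none of the 9. These counts moved with the length of the window. Within 25 bp of the summit, CHR letters were at lin-54 alone of the 5 bound members (7.20% of IDR windows, 15.3% of low-ranked ones). CTGCGTCT was still at efl-1. E2F letters, AAGTT and GAGAGA were at none of the 5 bound members. AAGTT was still at lin-37 and efl-2 (6.03% of IDR windows, 17.1% of low-ranked ones). Within 100 bp, CHR letters were at 4 of 5 (40.8% of IDR windows, 50.1% of low-ranked ones) and E2F letters at 4 of 5 (17.4% and 7.32%), in both cases lin-54, lin-53, lin-9 and efl-1. At that length AAGTT was at lin-35, lin-9 and efl-1 (26.5% and 53.5%) and GAGAGA at lin-35 and lin-9 (36.9% and 11.2%), while GGCGGG was still at none of the 9. These matches are letters in a window and not measured sites. The G and C content of the low-ranked windows is not given here, and the shares were not adjusted for it.

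The windows of lin-54, lin-9 and efl-1 shared a run of 9 letters, GCGCTCCAC, on 1 strand or the other. This was the longest run found in at least 3 of the 5 bound members' windows. It was looked for after the windows had been seen. Its centre lay 18 bp from the summit at lin-54, 24 bp at lin-9 and 12 bp at efl-1. It occurred in 34 of 1875 IDR windows (1.81%) and in 11 of 11250 low-ranked windows (0.0978%). The lin-35 and lin-53 windows did not hold it, also with 100 bp either side. The windows of the bound members ranged from 37.6% G and C (lin-54) to 56.4% (lin-53), around the mean of 48.9% ± 7.87 (SD over 1875 IDR windows), and those of efl-2 and dpl-1 were at 28.7%.

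Genes that act on or with DREAM were read by the same rule, from lists chosen with earlier results of these data known. Regulators of the retinoblastoma pathway had an IDR summit at 6 of 7 genes, against the 11.9% of all coding genes. These were cyd-1 (cyclin D, rank 604), cdk-4 (its kinase, rank 1138), cye-1 (cyclin E, rank 1148), the CDK inhibitors cki-1 (rank 1475) and cki-2 (rank 270), and fzr-1 (a Cdh1-type activator of the anaphase-promoting complex, rank 499), and not cdk-2. The signals, from 77.7 at cki-1 to 247 at cki-2, were below those of the 4 strongest members. Those of cki-2 and fzr-1 (164) were above that of efl-1 (149). The 3 summits of cyd-1 lay inside that long gene, the strongest 10572 bp from its 5' end, and that of fzr-1 was 1904 bp upstream. With summits within 1000 bp of the 5' end only, 4 of 7 were counted, against 8.09% of coding genes. Of the paralogs of members, rba-1 was counted through the lin-53 peak and efl-3 had none (best pooled rank 2025).

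The other class B synMuv genes had an IDR summit at 5 of 10, lower in signal than those of lin-54, lin-35, lin-53 and lin-9. The genes were lin-36 (signal 173), lin-61 (109), mep-1 (105), lin-13 (97.5) and lin-15B (71.8), while lin-65, hpl-2 and met-2 were among those without. None of 4 class A synMuv genes had one, lin-8, lin-15A and lin-38 among them, and here the exact interval reaches 60.2% and a lower share was not detectable. Of 8 genes whose loss suppresses class B defects, mrg-1, a chromodomain protein gene (signal 344), and zfp-1 (325) had one, while mes-2, mes-3 and mes-4 were among those without. The 4 zfp-1 summits were inside the gene, the strongest 4329 bp from its 5' end.

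Germline granule genes repressed by synMuv B proteins and cell cycle and replication genes of the E2F type were read as separate lists. Binding of DREAM or E2F at these genes was not examined. None of 5 germline granule genes, such as pgl-1, pgl-3 and glh-1, had an IDR summit, and their best pooled ranks ran from 4816 to 24822. The exact interval for 0 of 5 reaches 52.2%, which takes in the 11.9% of all coding genes. Cell cycle and replication genes had one at 9 of 22 (40.9%, 20.7 to 63.6), namely pcn-1 (the sliding clamp, signal 360), orc-2 (265), cdc-6 (200), rnr-1 (168), bub-1 (109), cye-1 (92.8), mcm-4 (71.0), mcm-2 (70.0) and rnr-2 (67.3). Without one were cdk-1, cyb-1 and cyb-3, among others. The intervals of these lists overlap, and no difference between them was tested. The orc-2 and rnr-1 summits were 1196 and 1443 bp upstream, and the bub-1 peak was the one also counted for lin-61. With summits within 1000 bp only, 6 of the 22 were counted.

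**Figure D4:**
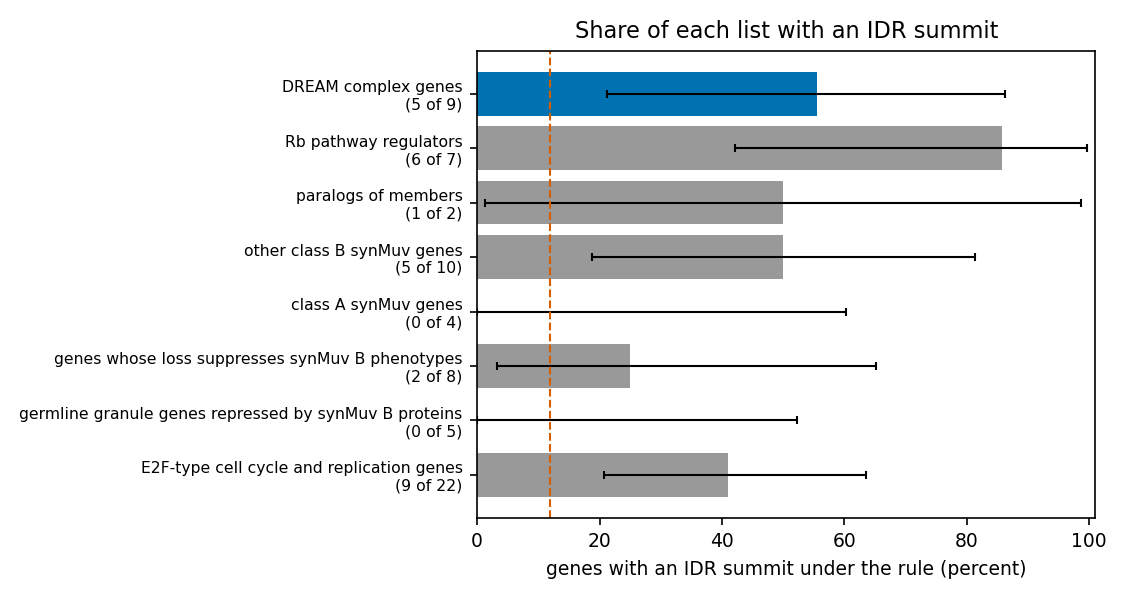
Percent of genes in each list with an IDR summit under the rule, for the DREAM complex genes (blue) and the lists read beside them (grey), with exact 95% intervals and counts in brackets; the dashed line is the share of all coding genes, 11.9%. The DREAM genes stand at 55.6%, and the class A synMuv and germline granule lists at 0, with intervals that reach beyond the dashed line.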

How the data were processed

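ZTF-11 ChIP-seq was deposited as lists of regions, of which the 4 on ce11 were used: IDR, pooled, and 1 for each of the 2 replicates. Per the text files the authors deposited, the replicate and pooled lists were called with a control alignment and include background, and the IDR list was derived from them. No source used here names the caller, the aligner or the IDR threshold. The deposited signal is the caller's own value per region, on a scale that differs between lists. Read depth is unknown, the 4 lists on ce10 were not used, and the control was not analysed here.

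Summits were start plus offset, counted from 1. Genes came from Ensembl release 115 of WBcel235. Ranks were by signal, and summits of 2 lists matched within 100 bp. The assignment rule, the matching, the classes of neighbour and the motif search were tested on simulated data. Shares have exact Clopper-Pearson 95% intervals. No test was run. The classes of neighbour and the search for shared letters were added after the members' values had been seen. Alternatives were other distances, the nearest gene, the 937 strongest peaks, either replicate alone, and other matching distances and windows. The named genes were the members, genes sharing their peaks, their neighbours in rank, and all genes of the lists with a summit plus up to 3 without one. The members and lists were chosen with earlier results of these data known. Python 3.11.15, pandas 2.3.3 and scipy 1.17.1 were used.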

Additional observations from a re-analysis of the deposited data

How the results depend on the processing

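The 5 members with an IDR summit were the same 5 with distances of 500, 1000 and 2000 bp without the gene body, with any coding transcript's 5' end and with the 937 strongest peaks. Where each summit went to its nearest coding gene alone, only lin-35, lin-9 and efl-1 remained (3), since the lin-54 and lin-53 summits were nearer to rpl-12 and nra-2. The share of all coding genes under that rule is not given. Leaving out a replicate gave 5 to 6 members, dpl-1 being added without replicate 2. All 5 were matched in both replicates under every matching rule tried. The share of coding genes was 8.09% at 1000 bp, 6.38% at 500 bp, 10.96% at 2000 bp without the gene body and 6.94% with the 937 strongest peaks, and 11.6% without either replicate. With those 937 peaks the retinoblastoma regulators fell to 3 of 7, class B genes to 2 of 10 and cell cycle genes to 5 of 22. At 1000 bp the paralogs had 0 and the suppressor list 1. Without a replicate the class A list had 0 to 1 and the cell cycle list 6 to 11. Any of the 6 motifs was within 25 bp of 2 of the 5 member summits, against 5 within 50 bp. Within 50 bp, each motif alone was in 7.73% to 23.8% of IDR windows. The share of IDR windows with any of the 6 was not counted, so these member counts have no base rate beside them. The median best rank of the members was 583 to 825 in single replicates. No paired analysis was possible because the series has 1 group. With 2 replicates and no read depth, the precision of single peaks rests on how far the replicates differ.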
